A study of Rattus norvegicus with 24 samples.

Results

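The comparison described here set 4 livers of rats fed 400 ppm rotenone for 3 days against 4 livers of time-matched rats on untreated food, which are 8 of the 24 liver arrays of the series. The members were chosen by the day and the diet in the labels and by no measured value. All animals were male Wistar rats of the RccHan:WIST stock, 7 to 8 weeks old, with no genetic modification, and each array held the liver RNA of a separate animal. The study assigned 5 animals to each of its 6 groups, fed the diets for 1, 3 or 14 days, and arrayed 4 livers per group. The rats were housed 2 or 3 to a cage with free access to food, and neither the cage of a rat nor the hour of necropsy was given in the sources used here.

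Rotenone is a plant isoflavonoid that blocks the transfer of electrons out of complex I, the entry point of NADH into the mitochondrial respiratory chain, and it also binds tubulin and hinders the assembly of microtubules. The liver switches between making fatty acids from dietary sugar and burning them for ketone bodies, under the control of the factors SREBP-1c and ChREBP on one side and PPAR alpha on the other. Hepatocytes also synthesise bile acids and plasma proteins, detoxify foreign compounds under the control of the receptors CAR and PXR, and in a young growing rat still divide.

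Liver RNA was hybridised to the Rat Transcriptome Array, and the values below are log2 of the deposited intensity plus 1 for a transcript cluster, which is the set of probes for 1 gene or gene-like unit. A change is the mean of the rotenone livers minus the mean of the control livers on this scale, given with its moderated standard error (SE). On the 8 arrays the median intensity lay between 31.2 and 35.5 and the median negative control probe set between 5.12 and 5.29 on the log2 scale, and arrays of a group correlated at 0.991 to 0.995. Where every liver of a group lay within 0.5 of, or below, the negative control median of its array, its mean is only a bound. Each such liver was then taken at the higher of its own value and the negative control median of its array, and the fold is given as at least the ratio so obtained. The number of arrays, 4 against 4, limits the precision: over all genes the median SE was 0.13 and the median SD within a group 0.16 in rotenone and 0.13 in control livers. The first principal component, with 39.6% of the variance, placed the rotenone livers at 33.1 to 35.97 and the control livers at -39.8 to -24.4. On the second, with 14.8%, rotenone replicate 4 lay apart at -47.2, against -2.4 to 25.1 in the other 3 rotenone livers. The labelled tissue was borne out by hepatocyte markers: albumin (Alb) read 19.74 to 19.91 in rotenone and 19.87 to 19.91 in control livers.

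Of 68842 transcript clusters, 2248 (3.27%) differed at an adjusted p below 0.05 in limma's moderated test, 1174 (1.71%) higher and 1074 (1.56%) lower in rotenone livers, and 799 (1.16%) also differed at least 1.8-fold. Taken as 22093 genes, each read from 1 cluster, 1467 genes (6.64%) passed, of which 779 (3.53% of all genes) were higher and 688 (3.11%) lower. The groups did not overlap in 1428 of the 1467, but these genes were picked by the same values, so this count adds no separate support. Over all genes, called or not, the 4 rotenone livers lay below all 4 control livers in 7.41%. Among the genes past the threshold, 25 rose and 32 fell at least 4-fold. Lists of genes from general knowledge are described below by how many of their measured members passed, and these counts are to be read against the shares of 3.53% and 3.11%. The median change over all genes was 0.03.

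The largest fall was that of Scd, stearoyl-CoA desaturase, which introduces the double bond of oleate: the 4 rotenone livers read 8.75, 8.48, 9.80 and 8.18, against 17.30, 17.39, 17.75 and 17.03 in control livers. The groups lay more than 7 log2 units apart at their nearest, and the change of -8.57 ± 0.59 was a 379-fold decrease (adjusted p 2.0e-08). Below Scd stood further enzymes of fatty acid and sugar metabolism, Fasn, Elovl6, Pnpla3, Acly, Me1 and the fatty acid carrier Fabp5, and genes of dividing cells, Rrm2, Rrm2l1, Mki67, Top2a and Ckap2. The largest rise was that of Cyp8b1, the sterol 12-alpha-hydroxylase that sets the share of cholic acid in bile: it read 15.68, 15.78, 14.78 and 15.56 in rotenone livers and 11.30, 10.77, 10.68 and 10.09 in control livers, 26.8-fold apart (4.74 ± 0.48, adjusted p 3.3e-06). Upp2, a uridine phosphorylase of the liver, was 26.6-fold higher, and the methyltransferase Inmt 23.3-fold. The lists with the highest shares of members past the threshold were those of mitosis, fatty acid synthesis and stellate cell markers among the falls, and xenobiotic enzymes, pericentral markers and fatty acid oxidation among the rises.

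**Figure D1:**
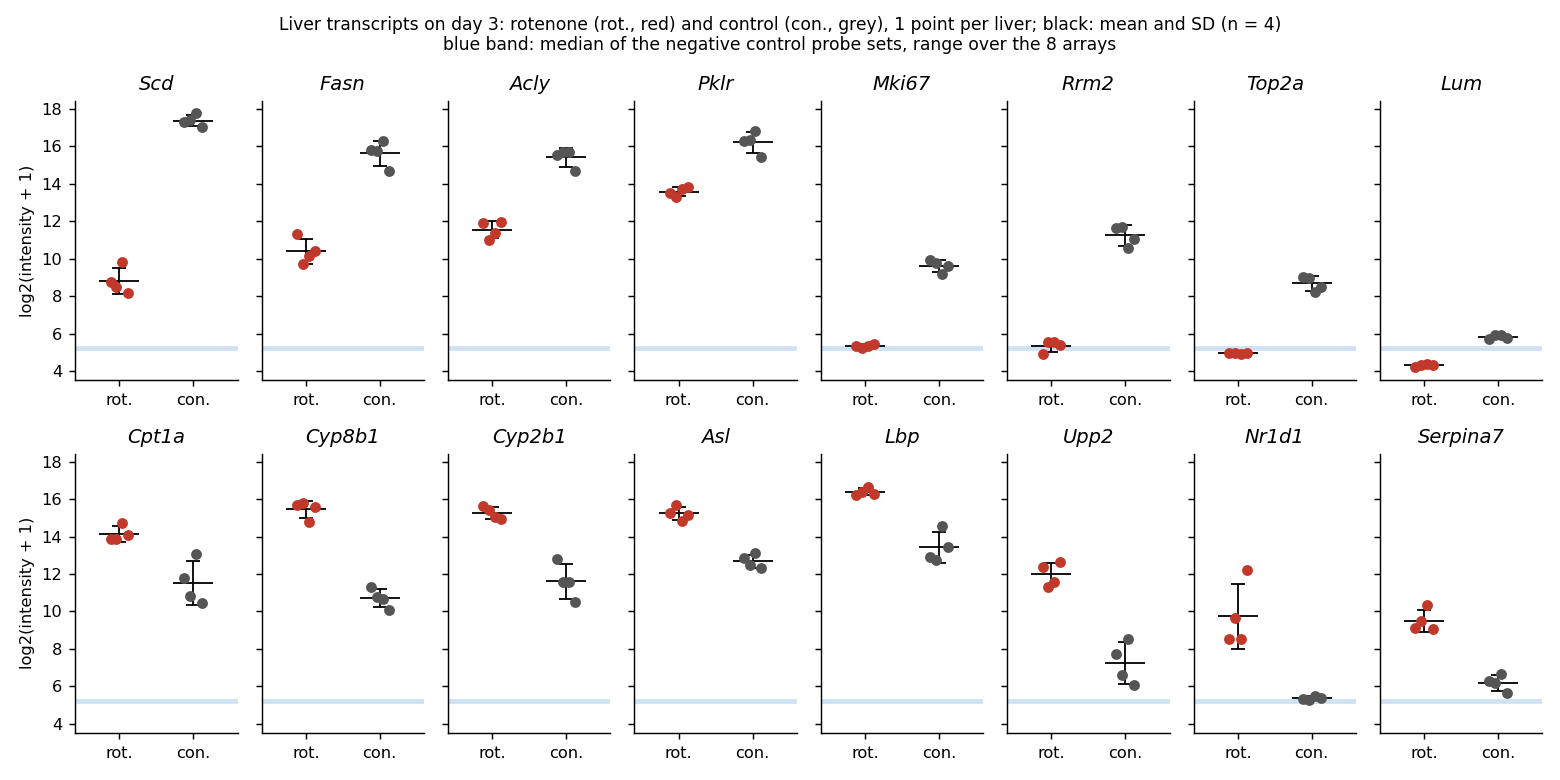
Log2 intensity plus 1 (vertical axis) of 16 genes in the 4 rotenone livers (red, left in each panel) and the 4 control livers (grey, right) of day 3, with mean and SD in black and the range of the negative control medians of the 8 arrays as a blue band. Scd lay at 8.18 to 9.80 in rotenone and 17.03 to 17.75 in control livers, while Mki67, Rrm2 and Top2a fell into or close to the blue band in rotenone livers, and Nr1d1 lay there in control livers.

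**Figure D2:**
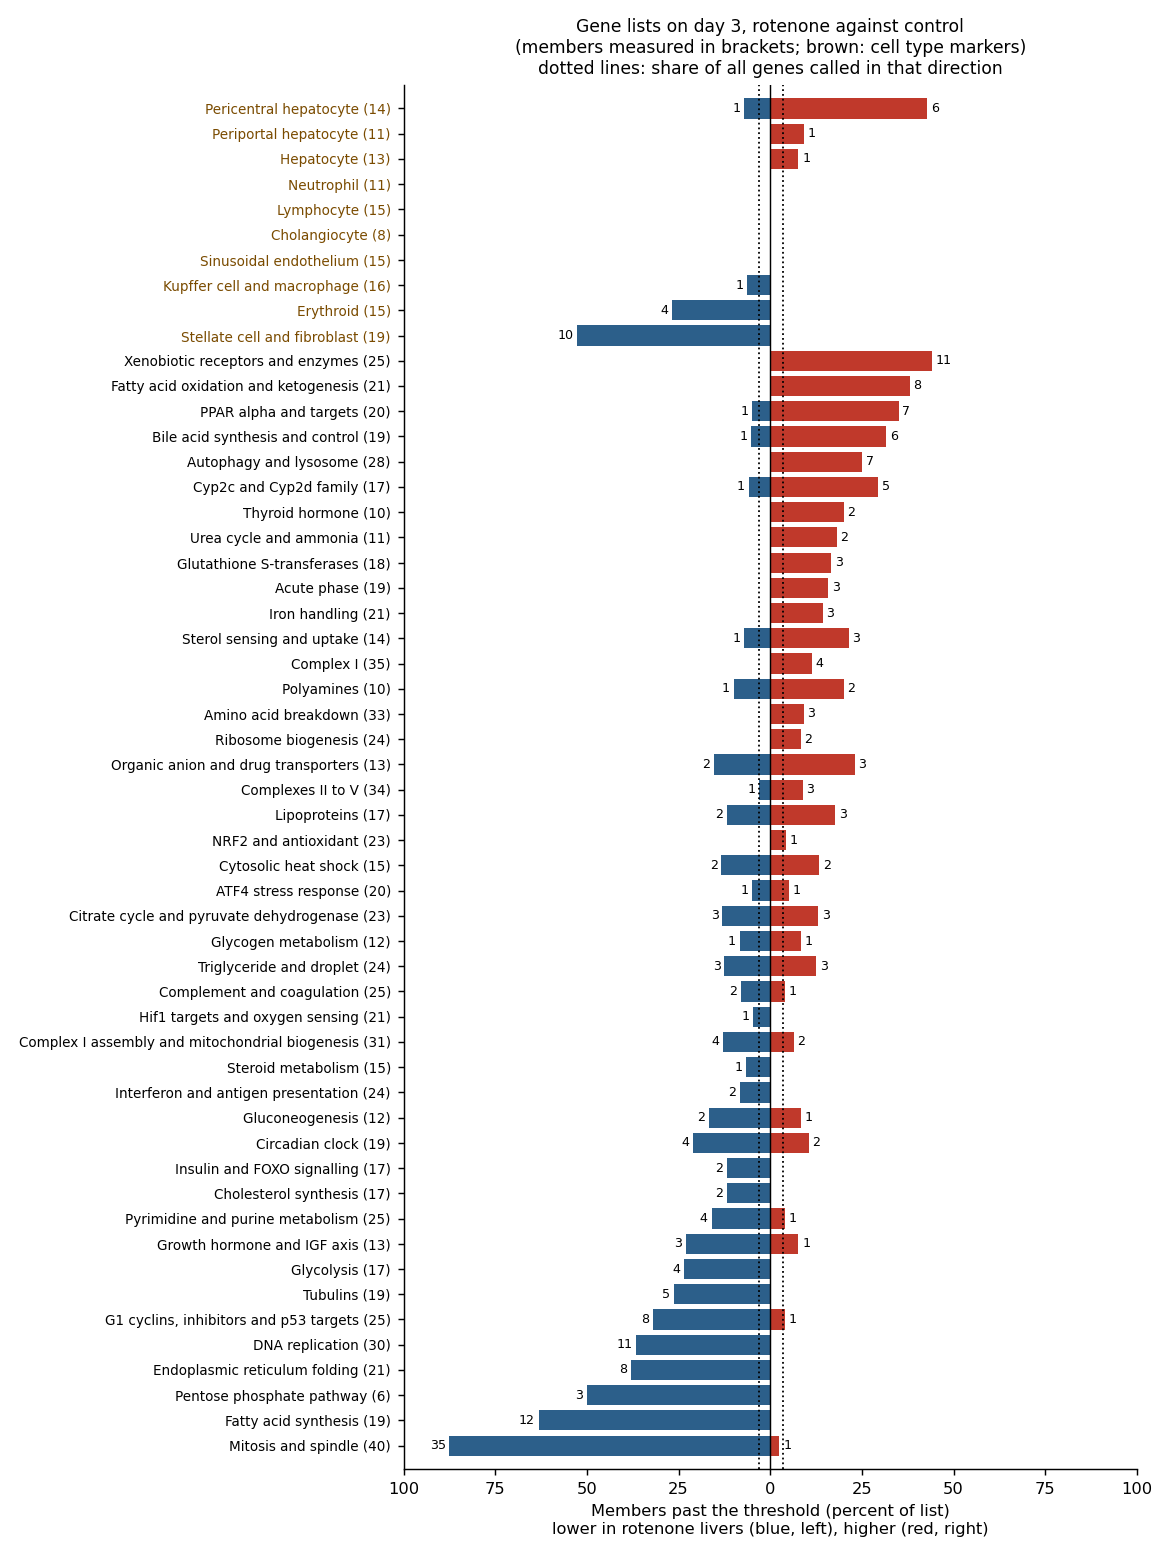
Percent of the measured members of each gene list (number in brackets) that were higher (red, right) or lower (blue, left) in rotenone livers at an adjusted p below 0.05, with the counts at the bar ends; brown names are cell type markers and dotted lines are the shares of all genes, 3.53% higher and 3.11% lower. The bar of the mitosis list, with 35 of 40 members lower, was the longest.

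Genes of cell division were lower throughout the rotenone livers. Of 40 genes of mitosis and the spindle, 35 fell, 1 rose and 4 stayed short of the threshold, and the median change was -1.08. All 4 rotenone livers lay below all 4 control livers for 36 of them, against 7.41% of all genes. Mki67, the marker of cycling cells, read 5.34, 5.21, 5.32 and 5.44 in rotenone livers, against 9.94, 9.75, 9.17 and 9.62 in control livers. Each rotenone liver stood at the level of the negative controls, and the decrease was at least 19.6-fold (-4.29 ± 0.33, adjusted p 1.1e-07). Top2a, the topoisomerase that untangles sister chromatids, was at 4.96, 4.98, 4.90 and 4.94 in rotenone and 9.05, 8.98, 8.23 and 8.47 in control livers, a decrease of at least 11.3-fold. Ccna2, the cyclin of S phase and early mitosis, fell at least 7.92-fold and Ckap2, a spindle protein, at least 5.50-fold. In total 26 of the 40 members lay at the level of the negative controls in all 4 rotenone livers but not in all 4 control livers, so their folds are lower bounds. A further 4 members lay at that level in both groups. The exception that rose was Cenpm, a subunit of the centromere complex, at 7.61 to 8.03 in rotenone and 6.75 to 7.20 in control livers (0.75 ± 0.16, adjusted p 0.0088).

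Many cell cycle genes of mammals carry a CHR element, with the core TTTGAA, near their start site, through which the DREAM complex holds them silent in resting cells, and a CCAAT box bound by NF-Y further upstream. The promoters of 6 of the fallen mitosis genes are shown because they hold both motifs within a short stretch. They were chosen after the values were seen, and are 80 bases each from RefSeq on the build GRCr8, read 5′ to 3′ on the strand of the gene, with TTTGAA and CCAAT and their reverse complements TTCAAA and ATTGG in capitals:
Cdc20: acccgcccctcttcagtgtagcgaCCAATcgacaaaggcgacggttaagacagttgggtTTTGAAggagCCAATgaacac
Ccnb2: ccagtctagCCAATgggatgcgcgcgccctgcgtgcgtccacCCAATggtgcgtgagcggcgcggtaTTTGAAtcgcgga
Prc1: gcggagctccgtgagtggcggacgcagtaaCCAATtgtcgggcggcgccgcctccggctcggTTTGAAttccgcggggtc
Cdk1: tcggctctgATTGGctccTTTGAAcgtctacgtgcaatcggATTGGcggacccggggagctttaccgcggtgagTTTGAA
Mki67: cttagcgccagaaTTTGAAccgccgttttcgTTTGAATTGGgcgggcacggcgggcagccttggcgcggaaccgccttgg
Top2a: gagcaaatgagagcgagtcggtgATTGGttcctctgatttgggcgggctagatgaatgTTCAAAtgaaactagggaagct
They lie at chr5:137255830-137255909 (minus strand, Cdc20), chr8:79981689-79981768 (minus, Ccnb2), chr1:143659401-143659480 (plus, Prc1), chr20:19265203-19265282 (plus, Cdk1), chr1:199952644-199952723 (minus, Mki67) and chr10:84473094-84473173 (minus, Top2a). In the Mki67 stretch a TTTGAA and an ATTGG overlap by a base, and this ATTGG lies downstream of both TTTGAA, not upstream. The Cdc20 stretch has a CCAAT, and the Cdk1 stretch an ATTGG, that also lies downstream of a TTTGAA.

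The 250 bases before the annotated start were searched on both strands in 33469 promoters of 27457 genes, among them 34 promoters of 33 of the mitosis genes. TTTGAA stood in 13 of these 34 (38.2%), against 16.2% of all promoters, and CCAAT in 23 (67.6%), against 34.0%. Both stood in 12 of the 34, against 5.87% of all promoters. In the promoters of the DNA replication list the share with CCAAT was alike (19 of 28, 67.9%), while TTTGAA was found in 1 of 28. A match is a description of the letters and not a bound site. The genes whose promoters are printed were all lower in all 4 rotenone livers: Cdc20 read 4.94 to 5.30 in rotenone and 5.96 to 6.56 in control livers, and Ccnb2 5.19 to 5.39 in rotenone and 6.59 to 6.91 in control livers. Prc1 read 4.65 to 5.06 in rotenone and 6.47 to 6.94 in control livers, and Cdk1 4.21 to 4.81 in rotenone and 5.88 to 6.21 in control livers.

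Fewer of the division genes fell on day 1 and on day 14. On day 1, 25 of the 40 mitosis genes fell (3.73% of all genes were lower) with a median of -0.55, on day 3 35 with -1.08, and on day 14 5 fell (background 3.33%) and 1 rose (background 5.98%), with -0.31. The difference of the rotenone effect between days was tested in the same fit: Mki67 was the 1 member whose effect differed between day 3 and day 1 (fitted difference -2.79 ± 0.47, adjusted p 0.014, with its day 3 rotenone livers at the level of the negative controls), and no member passed between day 14 and day 3. Rrm2, the regulated subunit of ribonucleotide reductase, did pass there. It read 4.90, 5.53, 5.54 and 5.39 in rotenone and 11.66, 11.69, 10.55 and 11.06 in control livers of day 3, a decrease of at least 55.8-fold (-5.90 ± 0.46, adjusted p 1.2e-07). Its change was -2.78 on day 1 and -1.93 on day 14, and the effect of day 14 was higher than that of day 3 by a fitted 3.97 ± 0.65 (adjusted p 0.035), or by 3.87 with values raised to the negative control median, a call that was lost when 1 array was left out, for 6 of the 8 arrays of day 3 (highest adjusted p 0.12). Rrm2l1, which fell by 6.06, and Rrm2 are near-identical copies whose probes may share signal, so the split between them is uncertain, as it is for Ckap2 and its pseudogene.

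**Figure D3:**
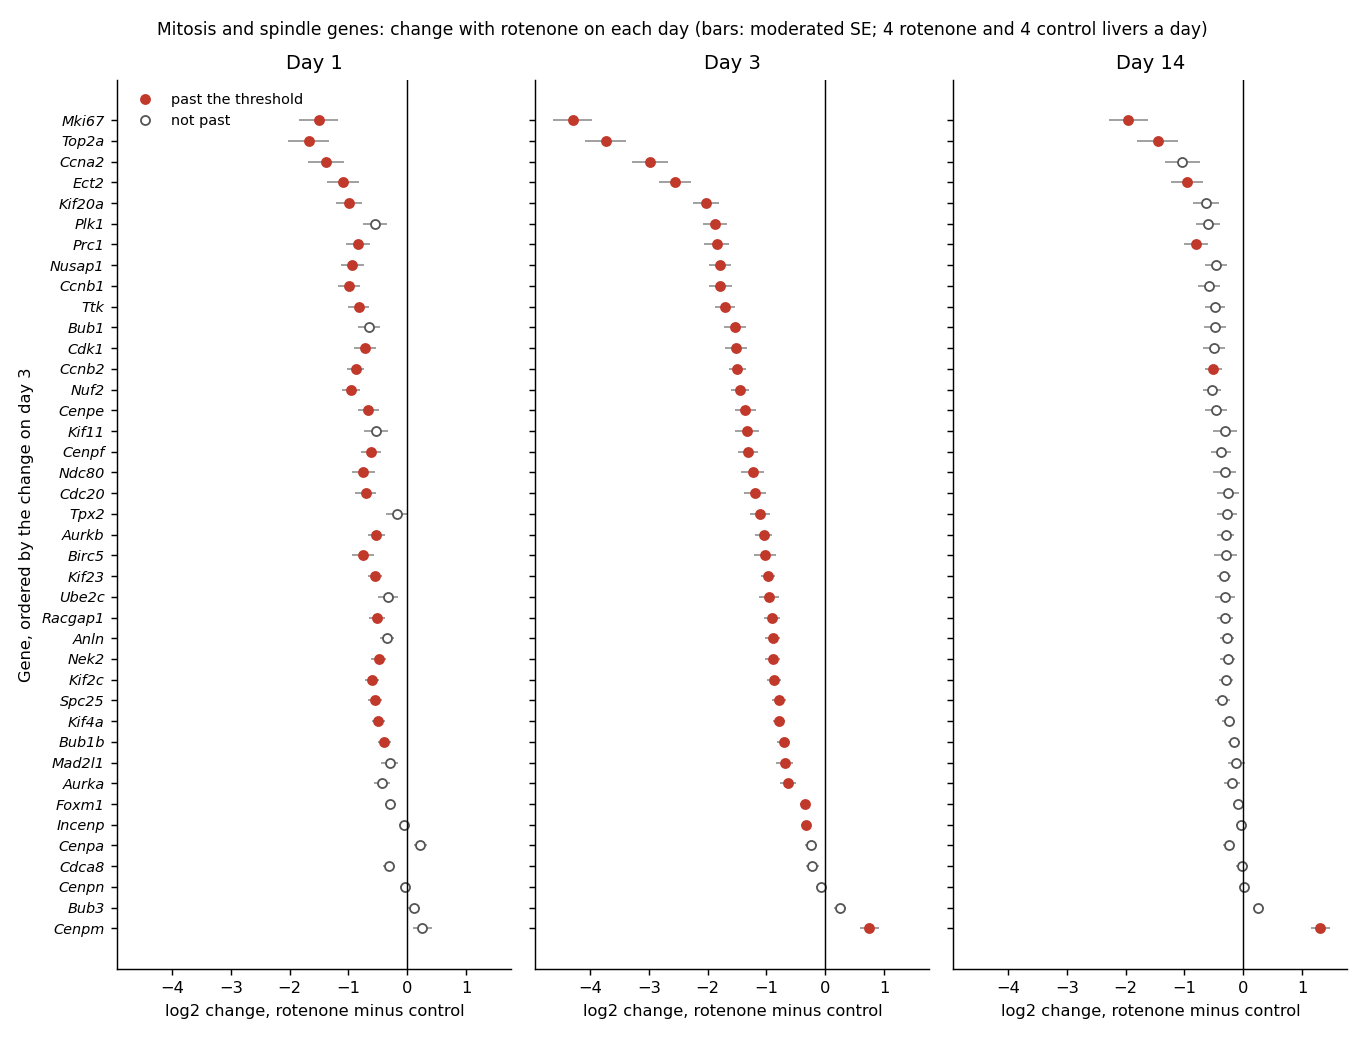
Change of the 40 mitosis and spindle genes with rotenone (horizontal axis, rotenone minus control, log2 units) on days 1, 3 and 14, ordered by the change on day 3, with moderated SE; filled red points passed an adjusted p of 0.05. On day 3, 35 genes fell and Cenpm rose; 25 fell on day 1, and on day 14 5 fell and 1 rose.

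The replication and G1 genes followed in part. Of 30 genes of DNA replication 11 fell and none rose, with a median of -0.27. Apart from Rrm2 these included the primase subunit Prim1, which read 8.73, 8.83, 8.43 and 7.85 in rotenone and 10.20, 10.15, 9.97 and 10.17 in control livers (-1.66 ± 0.25, adjusted p 0.00026), and the helicase subunit Mcm6, which fell at least 2.25-fold. Of the 30, 10 lay at the level of the negative controls in both groups. Of 25 G1 cyclins, inhibitors and p53 targets 8 fell and 1 rose. Ccnd1, the cyclin that starts the cycle, read 6.58, 6.56, 6.45 and 6.82 in rotenone and 8.06, 7.33, 7.27 and 7.67 in control livers, with no overlap (-0.98 ± 0.18, adjusted p 0.0026). On day 1 it had risen by 1.70, and the difference of the effect between day 3 and day 1, -2.68 ± 0.26, passed (adjusted p 3.9e-05). Ccne2 fell at least 2.08-fold and the pocket protein Rbl1 2.00-fold, and the kinase Cdk2 rose by 0.53 ± 0.12. Cdkn1a, the p53 target that stops the cycle, had a change of -1.22 and an adjusted p of 0.29. The count of fallen G1 genes was 5 without control replicate 2 or without rotenone replicate 1 or 2. Of 19 tubulins and their partners 5 fell, among them Tubb6, which read 6.03, 6.04, 6.37 and 6.34 in rotenone and 7.13, 7.07, 6.83 and 7.15 in control livers (-0.85 ± 0.13, adjusted p 0.00036). The calls of Tubb5 (-1.09) and Tubb2a (-1.28) did not survive every array left out (highest adjusted p 0.064 and 0.16), and the count of 5 was 2 without control replicate 1 and 3 without control replicate 2 or rotenone replicate 2.

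Genes of fatty acid synthesis were lower. Of 19 genes 12 fell and none rose, with a median change of -1.37, and for 14 the rotenone livers all lay below the control livers (7.41% of all genes). Acly, which splits citrate to cytosolic acetyl-CoA, read 11.90, 10.99, 11.35 and 11.95 in rotenone livers, against 15.55, 15.70, 15.71 and 14.67 in control livers, 14.6-fold lower (-3.86 ± 0.49, adjusted p 4.8e-05). Fasn, the synthase, read 11.30, 9.69, 10.14 and 10.40 in rotenone and 15.82, 15.74, 16.27 and 14.68 in control livers, 37.9-fold lower (-5.24 ± 0.74, adjusted p 0.00016). Neither pair of groups overlapped, and control replicate 4 was the lowest control liver for both. Elovl6, which lengthens palmitate, was 26.2-fold lower, and its 3 transcript clusters changed by -4.71, -3.68 and -4.69. Me1, a source of NADPH for the synthase, was 9.64-fold lower (-3.27 ± 0.39). Fabp5, a fatty acid carrier, fell 11.7-fold. Srebf1, which encodes SREBP-1c, read 9.31 to 9.54 in rotenone and 10.77 to 11.55 in control livers and missed the threshold (-1.71 ± 0.56, adjusted p 0.11). The SE draws on the spread within all 6 groups of the series and not on day 3 alone. On day 1, 17 of the 19 genes fell, and on day 14 4 fell and 1 rose (background 3.73% and 3.33% lower), and no member's effect differed between day 3 and either other day at the threshold.

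Genes of the lipid droplet moved apart from each other. Of 24 genes 3 rose and 3 fell. Pnpla3, a lipase of the droplet that is switched on by feeding, read 6.16, 5.48, 5.72 and 5.75 in rotenone and 10.73, 9.22, 13.27 and 8.85 in control livers. The control livers spread over more than 4 log2 units, yet all lay above the rotenone livers (-4.74 ± 0.72, 26.7-fold lower, adjusted p 0.00036). Gpam, which makes the first step of glycerolipid synthesis, was 3.07-fold lower and the monoglyceride lipase Mgll 2.24-fold lower. Pnpla2, the main triglyceride lipase, rose in contrast to 12.86, 12.51, 12.40 and 11.65 in rotenone livers, against 10.80, 10.17, 11.15 and 10.37 in control livers (1.73 ± 0.27, adjusted p 0.00045), and the droplet protein Cidea was 2.75-fold higher (adjusted p 0.0073).

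Many genes of fatty acid oxidation and of the PPAR alpha targets were higher. Of 21 genes of oxidation and ketogenesis 8 rose and none fell, with a median of 0.29. Cpt1a, the carnitine acyltransferase that admits long-chain fatty acids to the mitochondrion, read 13.85, 13.84, 14.73 and 14.08 in rotenone livers, against 11.80, 10.81, 13.05 and 10.46 in control livers, 6.04-fold higher (2.60 ± 0.53, adjusted p 0.0056). Decr1, which handles unsaturated fatty acids, was 4.08-fold higher (2.03 ± 0.31). Eci1, an isomerase of the same pathway, rose by 0.84 ± 0.22, against 2.75 on day 1. The difference between these days, -1.92 ± 0.32, passed (adjusted p 0.013), although the day 3 change alone reached an adjusted p of 0.13 with 1 array left out. The count of 8 was 4 without control replicate 2 or 4 and 5 without rotenone replicate 2 or 3.

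Of 20 PPAR alpha targets 7 rose and 1 fell, with a median of 0.74. Vnn1, a pantetheinase, read 8.97, 8.49, 8.19 and 8.60 in rotenone and 6.16, 5.84, 6.80 and 6.14 in control livers (2.33 ± 0.31, 5.02-fold, adjusted p 9.5e-05). Ech1, of peroxisomal and mitochondrial oxidation, was 4.79-fold and the carnitine acetyltransferase Crat 4.03-fold higher, and in both all rotenone livers lay above all control livers. The fall was that of Fabp1, the liver fatty acid binding protein, by 0.46 ± 0.12 (adjusted p 0.039, and 0.13 at its highest with 1 array left out). Fgf21, a hormone that PPAR alpha induces in fasting, lay at the level of the negative controls in both groups, 5.30 to 5.65 in rotenone and 5.21 to 5.52 in control livers. On day 1 10 of the 20 had risen and on day 14 7 (background 5.69% and 5.98% higher). By the test of the difference, the effect was lower on day 3 than on day 1 for 1 of the 20, and none differed between day 14 and day 3.

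Bile acid synthesis changed unevenly along its pathway. Of 19 genes 6 rose and 1 fell. Beside Cyp8b1, the mitochondrial sterol 27-hydroxylase Cyp27a1 read 15.12, 14.80, 14.06 and 14.49 in rotenone and 13.44, 13.07, 13.84 and 13.40 in control livers (1.18 ± 0.26, adjusted p 0.0091). Slc27a5, which activates bile acids for conjugation, was 1.85-fold higher (0.89 ± 0.19). Cyp7b1, of the oxysterol branch, fell by 1.07 ± 0.24 (adjusted p 0.012, and 0.057 at its highest with 1 array left out). Cyp7a1, the rate-limiting enzyme, read 14.86, 13.11, 9.39 and 14.91 in rotenone livers, against 16.28, 15.18, 15.05 and 14.75 in control livers. The groups overlapped and rotenone replicate 3 lay far below the rest, so that the change of -2.25 ± 1.19 did not pass (adjusted p 0.43). Upstream, 2 of 17 genes of cholesterol synthesis fell, Nsdhl by 0.98 ± 0.20 and Pmvk by 0.93 ± 0.17, and none rose, with a median of -0.54. On day 14 10 of these 17 had risen (background 5.98%), and Tm7sf2, a sterol reductase, differed between day 14 and day 3 (2.42 ± 0.32, adjusted p 0.0056). Insig1, which retains the sterol sensor in the endoplasmic reticulum, read 13.10, 12.28, 10.95 and 11.82 in rotenone and 14.62, 14.17, 14.30 and 13.17 in control livers (-2.03 ± 0.48, adjusted p 0.019, and 0.083 with 1 array left out). Insig1 was the 1 fall among 14 genes of sterol sensing and uptake, of which 3 rose. The sterol receptors Nr1h3 and Nr1h2 (LXR alpha and beta) rose by 0.73 ± 0.14 and 0.76 ± 0.13.

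Transporters and apolipoproteins held a few large single changes. Of 13 transporters 3 rose and 2 fell. Slc22a5, the carnitine importer, read 10.17, 9.77, 9.52 and 10.09 in rotenone and 7.79, 7.59, 8.32 and 7.89 in control livers, 3.97-fold higher (1.99 ± 0.27, adjusted p 0.00011). Abcb4, which flips phosphatidylcholine into bile, was 2.87-fold higher, and Abcg2, an efflux pump for drugs and urate, 3.30-fold lower. The count of fallen transporters rested on Abcg2 and Slc22a7, and the call of Slc22a7 (-0.68) reached an adjusted p of 0.079 with 1 array left out. Of 17 lipoprotein genes 3 rose and 2 fell. Apoa4, an apolipoprotein of triglyceride-rich particles, read 13.89, 14.30, 14.14 and 14.05 in rotenone and 15.86, 16.00, 16.04 and 15.52 in control livers (-1.76 ± 0.25, adjusted p 0.00017). Its change was -0.17 on day 1 and -4.57 on day 14, and the effect of day 14 was lower than that of day 3 by 2.81 on the log2 scale (adjusted p 0.0048). Apoc4 was 3.71-fold and the phospholipid transfer protein Pltp 2.40-fold higher, and Abca1, which loads cholesterol on HDL, 1.93-fold lower. Apof, an inhibitor of lipid transfer, was 7.76-fold higher on day 3 (2.96 ± 0.59, adjusted p 0.0045), with a change of -1.60 on day 14 that stayed short of the threshold (adjusted p 0.13). The difference of its effect between day 14 and day 3 did not pass either.

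Several genes of sugar metabolism were lower, and few were higher. Of 17 glycolytic genes 4 fell and none rose. Pklr, the pyruvate kinase of the liver and a target of ChREBP, read 13.49, 13.29, 13.72 and 13.81 in rotenone and 16.28, 16.32, 16.80 and 15.43 in control livers, 6.19-fold lower (-2.63 ± 0.33, adjusted p 5.0e-05). Pgk1, the phosphoglycerate kinase, was 2.00-fold lower. Of 6 genes of the pentose phosphate pathway 3 fell, with transketolase (Tkt) 3.05-fold and transaldolase (Taldo1) 1.62-fold lower. Pc, which carboxylates pyruvate for gluconeogenesis and for citrate, read 12.80, 12.38, 12.82 and 12.48 in rotenone and 14.10, 14.07, 14.29 and 13.91 in control livers (-1.48 ± 0.14, adjusted p 1.7e-06). On day 1 its change was -0.20, and the difference between the days passed (-1.27 ± 0.20, adjusted p 0.0066). Of 12 genes of gluconeogenesis 2 fell, Pc among them, and 1 rose. The hormone-driven enzymes Pck1 and G6pc1 did not pass, and nor did Igfbp1, a target of FOXO, which read 15.82, 15.65, 12.37 and 12.35 in rotenone and 15.82, 14.52, 16.67 and 12.06 in control livers. Those values spread over more than 3 log2 units within each group and overlapped. Of 17 genes of insulin and FOXO signalling 2 fell, Pik3r1 and Sesn1, and neither call survived every array left out (highest adjusted p 0.16 and 0.15). Gbe1, the glycogen branching enzyme, read 13.74, 13.64, 13.66 and 13.65 in rotenone livers, against 15.70, 15.90, 15.53 and 15.34 in control livers, 3.86-fold lower (-1.95 ± 0.15, adjusted p 1.2e-07), while Gaa, the glucosidase that degrades glycogen in lysosomes, rose by 1.23. The glycolytic count of 4 was 2 without control replicate 1, 2 or 3 or rotenone replicate 2.

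Between glycolysis and the citrate cycle, 3 of 23 genes rose and 3 fell. Pdk1, a kinase that inhibits pyruvate dehydrogenase, read 10.04, 9.97, 10.11 and 10.01 in rotenone and 11.31, 11.50, 11.62 and 10.87 in control livers (-1.29 ± 0.15, adjusted p 1.3e-05), and Dlat, a subunit of that enzyme, fell by 0.88 ± 0.12. Idh2, the NADP-linked isocitrate dehydrogenase of mitochondria, rose to 11.18, 11.39, 11.21 and 11.16 in rotenone livers, against 10.23, 10.57, 10.09 and 10.21 in control livers (0.96 ± 0.14, adjusted p 0.00019). On day 1 its change was -0.37, and the difference from day 1 was 1.33 ± 0.19 (adjusted p 0.0044). The count of 3 rises in this list was 1 without control replicate 2 or 4 or rotenone replicate 1.

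Few transcripts of complex I, the target of rotenone, passed the test. Of 35 nuclear-encoded subunits 4 rose and none fell, and the median change was 0.10. Ndufs7, an iron-sulfur subunit close to the site where rotenone binds, read 8.12, 8.12, 7.96 and 8.00 in rotenone and 7.19, 6.77, 7.56 and 6.87 in control livers, 1.94-fold higher (0.96 ± 0.17, adjusted p 0.0019). Ndufa3 and Ndufb2 rose by 0.87 ± 0.20 and 0.66 ± 0.18, and both lost the call when 1 array was left out (highest adjusted p 0.071 and 0.15). The 4 rises were 2 without control replicate 1, 2 or 4 or rotenone replicate 1. On day 1 3 of the 35 rose (background 5.69%) and 5 fell (3.73%), and on day 14 7 rose (5.98%) and none fell. No member's effect differed between day 3 and either other day at the threshold. Of 34 subunits of complexes II to V 3 rose and 1 fell. The cytochrome oxidase subunit Cox6a1 was 2.37-fold higher (1.25 ± 0.25). Of 31 genes of complex I assembly and mitochondrial biogenesis 2 rose and 4 fell, with Tfb1m, a methyltransferase of mitochondrial ribosomal RNA, at -0.60 ± 0.12. These counts were unstable: without control replicate 1, for example, none rose and 1 fell, and each of the 8 arrays of day 3, left out in turn, lowered the 4 falls to 1 or 2. Ppargc1a, the coactivator of mitochondrial biogenesis, read 9.04, 8.91, 8.70 and 8.40 in rotenone and 7.47, 7.08, 8.04 and 7.25 in control livers, just inside the threshold (1.31 ± 0.36), and reached an adjusted p of 0.15 with 1 array left out.

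Enzymes for foreign compounds formed the largest group of rises. Of 25 xenobiotic receptors and enzymes 11 rose and none fell, with a median of 0.54. Cyp2b1, the textbook target of the receptor CAR, read 15.62, 15.42, 15.03 and 14.96 in rotenone livers, against 12.82, 11.55, 11.58 and 10.51 in control livers, 12.5-fold higher (3.65 ± 0.55, adjusted p 0.00031). Cyp2b2 was 6.60-fold higher (2.72 ± 0.51), and since these genes are near-identical the signal of each may include that of the other. The carboxylesterase Ces2c read 12.57, 12.02, 11.64 and 11.73 in rotenone and 9.74, 9.24, 10.02 and 9.42 in control livers (2.38 ± 0.30, adjusted p 5.2e-05). Fmo5, a flavin monooxygenase, was 6.35-fold higher. The count of 11 was 7 without control replicate 4 and 6 without rotenone replicate 1. Of 17 genes of the Cyp2c and Cyp2d families 5 rose and 1 fell. Cyp2c24 read 11.32, 9.32, 9.62 and 9.25 in rotenone and 6.71, 6.61, 6.80 and 6.61 in control livers, 9.14-fold higher (3.19 ± 0.43, adjusted p 8.9e-05), with changes of 0.52 on day 1 and 5.69 on day 14. Its effect did not differ between day 3 and either other day at the threshold. Cyp2d3 and Cyp2d4 rose by 0.93 ± 0.15 and 0.89 ± 0.17, and the family count of 5 was 3 without control replicate 4 or rotenone replicate 1. Of 18 glutathione S-transferases 3 rose, with Gstm7 2.19-fold, Gstm4 2.17-fold and Gstt2 1.46-fold higher. Of 23 NRF2 targets and antioxidant genes 1 rose, Gpx1, by 0.52 ± 0.14, a call that also failed with 1 array left out (highest adjusted p 0.12).

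The circadian clock is a loop in which Bmal1 and Clock switch on the period, cryptochrome and Rev-erb genes and the output factor Dbp through E-boxes (CACGTG), and the Rev-erb proteins Nr1d1 and Nr1d2 repress Bmal1 through elements with the core TAGGTCA. A stretch of 60 bases from the promoters of Nr1d1 and Bmal1, chosen to show these elements, reads as follows in RefSeq on GRCr8, with the E-box and the TAGGTCA core in capitals:
Nr1d1: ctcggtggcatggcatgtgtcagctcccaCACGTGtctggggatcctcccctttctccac
Bmal1: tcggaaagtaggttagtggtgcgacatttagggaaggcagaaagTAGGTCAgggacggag
The stretches lie at chr10:84229615-84229674 on the minus strand and chr1:176766268-176766327 on the plus strand. CACGTG stood in 5 of 19 promoters of the clock list (26.3%), against 5.59% of all, and TAGGTCA in 1 of 19, against 2.26% of all, with the same 250 bases and both strands searched.

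Of 19 clock genes 2 rose and 4 fell. Nr1d1 read 8.51, 9.66, 8.55 and 12.24 in rotenone livers, against 5.30, 5.29, 5.50 and 5.39 in control livers, which stood at the level of the negative controls, so that it was at least 20.7-fold higher (4.37 ± 0.52, adjusted p 2.4e-05). Nr1d2 rose to 9.46, 10.04, 9.52 and 11.73 in rotenone livers, against 8.40, 8.03, 8.67 and 8.07 in control livers (1.90 ± 0.35, adjusted p 0.0026). Rotenone replicate 4 was the highest liver for both. Cry1 read 7.54, 7.40, 7.49 and 6.27 in rotenone and 8.85, 8.95, 8.75 and 8.73 in control livers (-1.64 ± 0.29, adjusted p 0.0016), and Per2, Rora and Cry2 fell by 1.39, 1.13 and 0.57. Bmal1 read 10.14, 9.97, 10.38 and 7.97 in rotenone and 10.48, 10.23, 10.26 and 10.27 in control livers, and Dbp 5.71, 5.80, 5.53 and 9.56 in rotenone and 6.12, 5.80, 6.17 and 5.92 in control livers. In both, rotenone replicate 4 stood alone, and neither passed (adjusted p 0.50 and 0.74).

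Rotenone replicate 4 lay above the other 7 livers of day 3 for 6 of the 19 clock genes (Nr1d1, Nr1d2, Dbp, Per3, Tef and Ciart) and below them for 5 (Bmal1, Clock, Npas2, Cry1 and Rora). Over all genes it was the highest of the 8 livers in 15.1% and the lowest in 14.7%. Rotenone replicate 3 was the lowest liver for 9 of the 19 (11.7% of all genes), and the 6 livers other than these were the lowest for at most 2 each. On the high side, control replicate 2 was the highest liver for 5 of the 19 (11.3% of all genes) and control replicate 1 for 3 (9.96%). The remaining livers were the highest for at most 2 each. Without replicate 4 Nr1d1 was still at least 11.6-fold higher (3.54 ± 0.32, adjusted p 1.6e-06), Nr1d2 2.61-fold higher (1.38 ± 0.25, adjusted p 0.0029) and Cry1 2.53-fold lower (-1.34 ± 0.27, adjusted p 0.0063), while the change of Bmal1 was -0.15 ± 0.33 and that of Dbp -0.32 ± 0.42. Whether the hour of necropsy differed among the livers was not tested, since no hour was given in the sources used here. On day 14 Nr1d1 and Dbp were higher by 6.38 and 3.23, and Bmal1 and Cry1 changed by -2.16 and -2.40, all past the threshold. No clock gene's effect differed between day 14 and day 3 at the threshold.

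**Figure D4:**
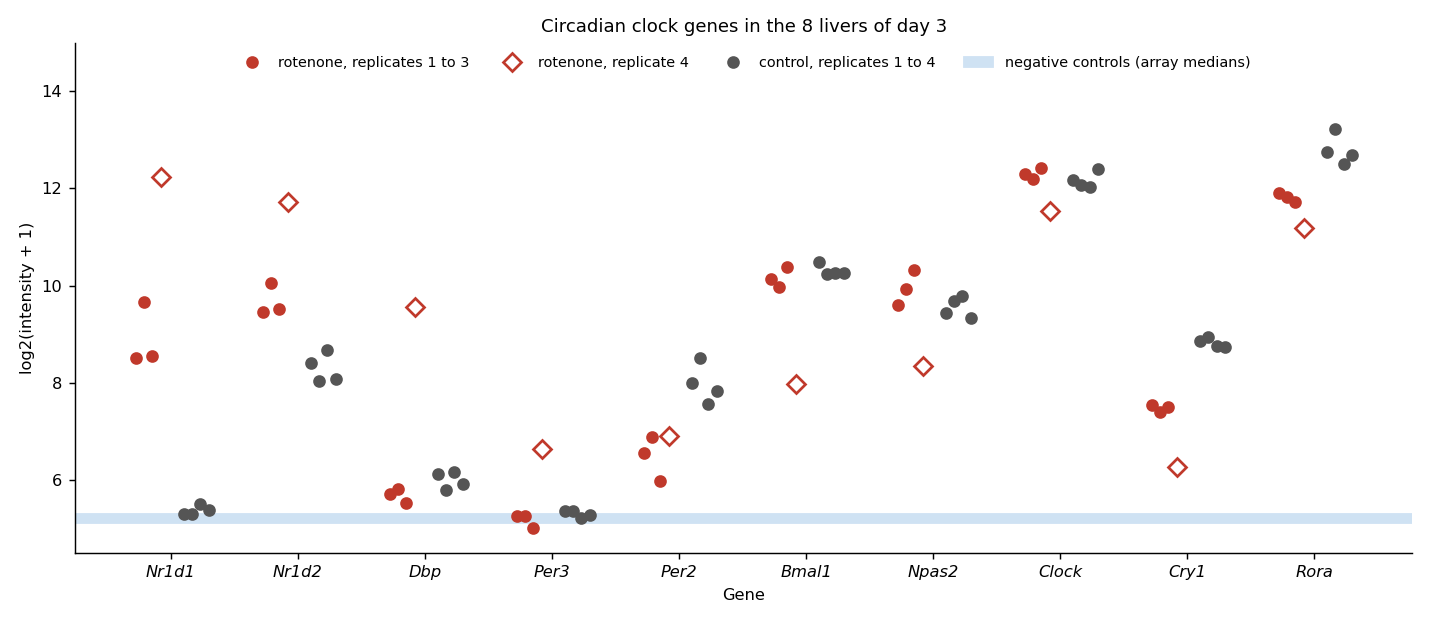
Log2 intensity plus 1 (vertical axis) of 10 clock genes in rotenone livers (red circles for replicates 1 to 3, open diamond for replicate 4) and control livers (grey) of day 3; the blue band marks the negative control medians. Nr1d1 lay above the control livers in all 4 rotenone livers, whereas Dbp at 9.56 and Bmal1 at 7.97 stood apart in replicate 4 alone.

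Hormone-related genes of the hepatocyte were altered in the same livers. Of 13 genes of the growth hormone and IGF axis 3 fell and 1 rose. Igf1 read 17.47, 17.55, 17.69 and 17.58 in rotenone and 18.53, 18.39, 18.30 and 18.57 in control livers (-0.88 ± 0.17, adjusted p 0.0036). Igfals, which stabilises circulating IGF, changed by -1.15 ± 0.29 and Igfbp2 by 2.27 ± 0.57, and both calls were lost with 1 array left out (highest adjusted p 0.097 and 0.088). The count of 3 falls was 1 without control replicate 4 or without rotenone replicate 1 or 2. Of 10 thyroid hormone genes 2 rose. Serpina7, the thyroxine-binding globulin of plasma, read 9.11, 9.49, 10.34 and 9.05 in rotenone and 6.29, 6.18, 6.65 and 5.65 in control livers, 9.90-fold higher (3.31 ± 0.41, adjusted p 4.2e-05), and the aromatic amino acid and thyroid hormone transporter Slc16a10 was 5.17-fold higher. Of 15 genes of steroid metabolism 1 fell, the estrogen receptor Esr1, which read 7.33, 7.72, 8.11 and 8.72 in rotenone and 10.51, 10.29, 9.84 and 10.76 in control livers (-2.38 ± 0.39, 5.21-fold lower, adjusted p 0.00070). Both changes were past the threshold on day 14 too, at 5.15 for Serpina7 and -2.63 for Esr1.

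Nitrogen metabolism showed single strong changes in lists with few other calls. Of 11 genes of the urea cycle and ammonia 2 rose. Asl, which releases arginine from argininosuccinate, read 15.26, 15.70, 14.85 and 15.15 in rotenone and 12.84, 12.46, 13.10 and 12.34 in control livers, 5.88-fold higher (2.55 ± 0.23, adjusted p 1.0e-06), and changed by 2.52 on day 1 and 2.76 on day 14. The liver glutaminase Gls2 was 1.78-fold higher. Of 33 genes of amino acid breakdown 3 rose and none fell, with Hpd, of tyrosine breakdown, at 0.44 ± 0.09. This count was 1 without control replicate 1 or 4 or rotenone replicate 1, 2 or 3, and on day 1 9 of the 33 had fallen (background 3.73%) and none had risen. By the test of the difference, the effect was higher on day 3 than on day 1 for 2 of the 33. Of 25 genes of nucleotide metabolism Upp2 rose and 4 fell, among them thymidine kinase (Tk1, 1.996-fold lower), thymidylate synthase (Tyms, -0.64 ± 0.14) and guanine deaminase (Gda, -0.74 ± 0.16). Upp2 read 12.38, 11.32, 11.56 and 12.64 in rotenone livers, against 7.74, 6.60, 8.55 and 6.06 in control livers, with no overlap (4.74 ± 0.61, adjusted p 5.2e-05), and its changes were 1.49 on day 1 and 4.30 on day 14. The effect on Upp2 did not differ between day 3 and either other day at the threshold. Of 10 polyamine genes Sat2 (1.44 ± 0.17) and Amd1 (0.89 ± 0.17), an S-adenosylmethionine decarboxylase, rose and ornithine decarboxylase, Odc1, fell (-0.54 ± 0.11).

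Protein folding, degradation and stress genes parted. Of 21 chaperones and folding enzymes of the endoplasmic reticulum 8 fell and none rose, with a median of -0.46. Dnajb11, a co-chaperone of BiP, read 10.005, 10.40, 10.57 and 10.53 in rotenone and 11.49, 11.67, 11.00 and 11.68 in control livers (-1.08 ± 0.19, adjusted p 0.0018). Hyou1, a chaperone of the same compartment, changed by -1.19 ± 0.27 and Pdia6, a disulfide isomerase, by -0.86 ± 0.20, and both lost the call with 1 array left out (highest adjusted p 0.064 and 0.067). The count of 8 was 2 without control replicate 2 or 4 or rotenone replicate 2, 3 without rotenone replicate 1, 4 without control replicate 1 and 5 after quantile normalization, and control replicate 3 was the lowest control liver for all 3 genes named. On day 1 11 and on day 14 7 of the 21 fell (background 3.73% and 3.33%). Of 28 genes of autophagy and the lysosome 7 rose and none fell, with a median of 0.17. Gabarapl1, which marks autophagosomes, read 14.57, 14.63, 14.50 and 14.02 in rotenone and 13.03, 12.86, 13.27 and 12.84 in control livers (1.43 ± 0.25, adjusted p 0.0013), and the lysosomal enzymes Ctsl and Ctsa rose by 1.20 ± 0.16 and 0.79 ± 0.10. In the list of ATF4 targets 1 of 20, Aldh1l2, fell (-1.46 ± 0.31) and 1 rose, Slc3a2 (0.47), a call that was lost for 7 of the 8 arrays left out in turn (highest adjusted p 0.165). Of 15 cytosolic heat shock genes 2 rose and 2 fell. The fall of Hspa4l to 5.97, 5.65, 5.60 and 5.41 in rotenone livers, against 7.33, 7.10, 7.56 and 7.23 in control livers, was the clearest of them (-1.65 ± 0.19, adjusted p 2.2e-05). The rises, Bag3 and Hsf1, were lost with 1 array left out (highest adjusted p 0.14 and 0.16).

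Few oxygen-sensing, iron and ribosome genes moved. Of 21 Hif1 targets 1 fell, Loxl2, a lysyl oxidase of collagen, which read 6.98, 6.89, 6.71 and 6.91 in rotenone and 7.87, 7.92, 7.84 and 7.76 in control livers (-0.98 ± 0.15, adjusted p 0.00033). Of 21 iron genes 3 rose: Ftl1, the ferritin light chain (1.10 ± 0.22, with other near-identical copies on the array), Hjv, which feeds the hepcidin pathway (0.86 ± 0.18), and the iron exporter Slc40a1 (0.70 ± 0.14). Hamp, which encodes hepcidin itself, read 16.87, 16.80, 13.84 and 17.06 in rotenone and 16.68, 15.75, 17.36 and 16.96 in control livers, and did not pass. Of 24 genes of ribosome biogenesis 2 rose, with Pes1 at 0.51 ± 0.09, where 12 had risen on day 1 (background 5.69%). By the test of the difference, the effect was lower on day 3 than on day 1 for 1 of the 24.

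Among plasma proteins and inflammatory genes few passed the test. Of 19 acute phase genes 3 rose and none fell. Lbp, which presents bacterial lipopolysaccharide, read 16.24, 16.40, 16.64 and 16.29 in rotenone and 12.93, 12.76, 14.55 and 13.44 in control livers, 7.87-fold higher (2.98 ± 0.34, adjusted p 1.8e-05). Its partner Cd14 read 11.14, 10.93, 10.77 and 10.64 in rotenone and 9.24, 8.91, 9.65 and 8.55 in control livers (1.79 ± 0.24, adjusted p 8.8e-05). Both genes were higher in every rotenone liver, while the list as a whole had a median change of -0.04. Of 25 complement and coagulation genes 1 rose, protein C (Proc, 0.46 ± 0.08), and 2 fell, C6 (-1.37 ± 0.25) and C8a (-0.52 ± 0.11). Of 24 interferon and antigen presentation genes 2 fell, with the chemokine Cxcl10 at 5.84, 5.80, 6.09 and 6.38 in rotenone and 6.86, 6.83, 7.72 and 7.79 in control livers (-1.28 ± 0.23, adjusted p 0.0020).

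Markers of the cell types of the liver were read to see which populations moved with the diet. In whole liver RNA, fewer cells of a type and less RNA per cell cannot be told apart. Of 13 general hepatocyte markers 1 rose, Asgr2 (0.44 ± 0.10), and none fell, with a median of -0.04. Of 14 markers of hepatocytes around the central vein 6 rose and 1 fell, Rgn, by 0.73. The count of 6 was 4 or 5 with each of the 8 arrays of day 3 left out in turn. The largest of the rises, Slc1a2 (1.71), lost its call with 1 array left out (highest adjusted p 0.077). The rises included Slc13a3, a dicarboxylate transporter, at 10.43, 9.94, 9.88 and 10.98 in rotenone and 8.65, 8.91, 8.63 and 9.28 in control livers (1.44 ± 0.26, adjusted p 0.0022), and the transcription factor Tbx3 (1.29 ± 0.23). Of 11 periportal markers 1 rose, Gls2. Of 16 macrophage markers 1 fell, the scavenger receptor Msr1 (-0.74 ± 0.16). None of 15 sinusoidal endothelial, 8 cholangiocyte, 15 lymphocyte or 11 neutrophil markers passed, and 11 of the lymphocyte and 10 of the neutrophil markers lay at the level of the negative controls in both groups. On day 1 8 of the endothelial markers had risen (background 5.69%), but for none of them did the effect differ between day 3 and day 1 at the threshold.

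Stellate cells store vitamin A and, with fibroblasts, lay down the collagen of the liver. Of 19 of their markers 10 fell and none rose, with a median of -0.55, and for 14 the rotenone livers all lay below the control livers (7.41% of all genes). The count of 10 was 7 to 11 with 1 array left out. Under other processing settings it was 4 to 13, lowest with the replicate number as a block over the 8 arrays of day 3. The mean level over the list was 8.21 to 8.65 in rotenone and 8.99 to 9.26 in control livers. Lum, a proteoglycan of collagen fibres, read 4.20, 4.32, 4.38 and 4.33 in rotenone livers, below the negative controls, against 5.71, 5.93, 5.95 and 5.74 in control livers, and was at least 1.57-fold lower (adjusted p 0.00014). Vim, an intermediate filament protein, was 2.41-fold and Pdgfrb, the receptor for PDGF, 2.32-fold lower, with no overlap. The retinoid store enzyme Lrat fell by 0.96, and Col1a1, Col1a2 and Col3a1 fell by 1.20, 1.06 and 0.98. On day 1 2 of the 19 had risen (background 5.69%) and none had fallen, and on day 14 8 fell (background 3.33%). The effect of day 3 lay below that of day 1 for 4 members, Lum (-1.997 ± 0.30, adjusted p 0.0059), Col1a2 (-1.57 ± 0.27, adjusted p 0.019), Col1a1 (-1.45 ± 0.28, adjusted p 0.042) and Sparc (-1.31 ± 0.23, adjusted p 0.021). The calls of Col1a2, Col1a1 and Sparc were lost when 1 array was left out. The value for Lum is the fitted difference: with every value raised to the negative control median of its array it was -0.92, from changes of 0.27 on day 1 and -0.65 on day 3, with no test.

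**Figure D5:**
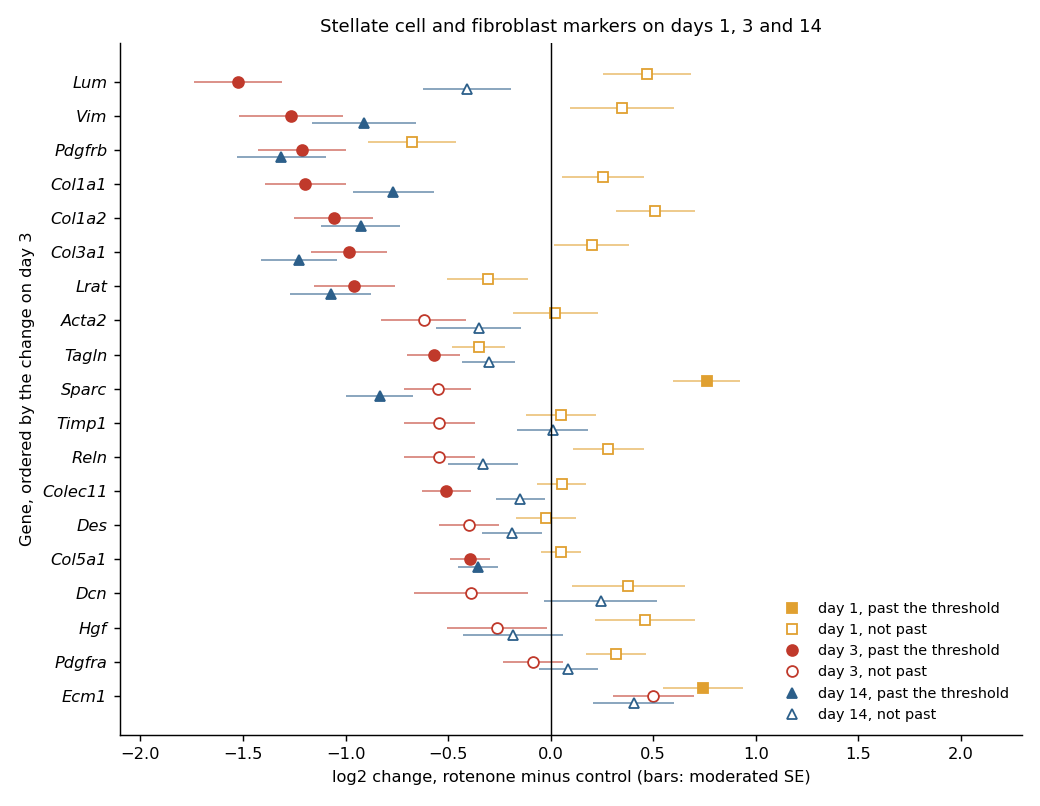
Change of 19 stellate cell and fibroblast markers with rotenone (horizontal axis, rotenone minus control, log2 units) on day 1 (squares), day 3 (circles) and day 14 (triangles), with moderated SE; filled symbols passed an adjusted p of 0.05. On day 3, 10 markers fell, whereas on day 1 none fell and 2 rose.

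Red cell transcripts in the liver were lower as well. Of 15 erythroid markers 4 fell and none rose, with a median of -0.62, and on day 14 9 fell (background 3.33%). No marker's effect differed between day 14 and day 3 at the threshold. Slc4a1, the anion exchanger of the red cell membrane, read 6.18, 6.10, 6.28 and 6.09 in rotenone and 7.64, 7.36, 6.96 and 7.05 in control livers (-1.09 ± 0.24, adjusted p 0.0090). Hbb-b1, a beta globin with near-identical copies, changed by -2.16 ± 0.54 and Alas2, the first enzyme of haem synthesis in red cells, by -1.53 ± 0.39, and both calls were lost with 1 array left out (highest adjusted p 0.097 and 0.099). The count of 4 was 1 without control replicate 1 or rotenone replicate 1 and 2 without control replicate 2 or 4 or rotenone replicate 4. The mean over the list was 8.13 to 8.50 in rotenone and 8.76 to 9.29 in control livers. Among the mitosis genes that fell, the share carried by red cell precursors was not tested.

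Across the days, most of the genes called on day 3 moved the same way on the others. Of the 1467 genes 1356 had the same sign of change on day 1, and 739 of them were past the threshold there with that sign, while 5 were past it with the other sign. On day 14 1404 had the same sign, 729 passed with it and none with the other. Over all genes 5.69% were called higher and 3.73% lower on day 1, and 5.98% higher and 3.33% lower on day 14. The share of all genes with the same sign on both days is not given here. Each day had its own control livers. Tests of the difference itself gave few genes: 56 differed between day 3 and day 1, 28 higher and 28 lower (0.127% of all genes each), and 7 between day 14 and day 3, 5 higher (0.0226%) and 2 lower (0.00905%). Over transcript clusters the numbers were 71 (0.0581% higher and 0.045% lower) and 8 (0.00872% higher and 0.00291% lower). The near balance of higher and lower between day 3 and day 1 depended on the array level. After array-median centring 18 clusters were higher, against 40 in the main fit, and 32 lower, against 31. Between control livers of day 3 and day 1, 0 genes (0%) passed in limma's test, with 620 at an unadjusted p below 0.05 (2.81%).

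Of the 28 genes whose effect was higher on day 3 than on day 1, most had a negative change on day 1, and 3 of these are described here. Thnsl2, a threonine synthase-like enzyme, read 9.76, 9.84, 9.94 and 9.95 in rotenone and 9.92, 9.81, 10.14 and 9.66 in control livers of day 3, which overlap, after a change of -1.88 on day 1 (difference 1.87 ± 0.26, adjusted p 0.0029). Iyd, which recovers iodide from iodotyrosines, had changes of -1.54 on day 1 and 0.59 on day 3 (difference 2.13 ± 0.30), and Tcea3, an elongation factor, by -1.29 and 0.68 (difference 1.97 ± 0.28). In the other direction stood Pkp2, a desmosome protein, which changed by 1.06 on day 1 and -1.10 on day 3 (difference -2.16 ± 0.29, adjusted p 0.0025). Of the 56 genes 37 had opposite signs on the 2 days, and 21 kept the call of the difference without each of the 8 arrays of day 3 in turn. Between day 14 and day 3 the differences of Apoa4, Apoa1, Psat1 and Tm7sf2 did so. Apoa1, the main protein of HDL, had a change of -0.11 on day 3 and -1.90 on day 14, and Psat1, of serine synthesis, one of -0.39 on day 3 and 1.77 on day 14.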

How the data were processed

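Liver RNA of 24 rats was measured on the GeneChip Rat Transcriptome Array 1.0, 1 array per animal. According to the methods of the study, the authors corrected the scans for the base content of the probes (Guanine Cytosine Count Normalization), applied the Signal Space Transformation and condensed probes by RMA. The deposited values are linear intensities, 1 per feature, with a highest value of 998430. They were taken as log2 of the deposited intensity plus 1. Of 70580 features 1738 control probe sets were set aside, leaving 68842 transcript clusters, of which 23446 carried 1 gene symbol, 505 several and 44891 none. For a gene with several 1-symbol clusters, the brightest on average across all arrays stood for it (22093 genes). Clusters called without a symbol (684) or with several (25) are not described.

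Means of the 6 groups were fitted to all 24 arrays with limma 3.58.1 in R 4.3.3 (lmFit, eBayes), so that all groups shared 1 estimate of the spread. P-values were two-sided, Benjamini-Hochberg adjusted over 68842 clusters, threshold 0.05. The contrasts were rotenone against control on day 3, the same on days 1 and 14, the differences of the effect between days, and control livers of day 3 against day 1. The arrays are labelled as biological replicates.

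Named genes were the 12 largest rises and falls without overlap between groups, up to 3 rises and 3 falls per list, 32 sentinel genes (3 of them had no cluster of 1 symbol and are not analysed here), and the 6 largest differences between days each way, 188 in all. Other genes named were chosen after their values were seen. The comparison and its 54 lists (1016 of 1077 genes found) were chosen with earlier results of these data known, and the lists come from general knowledge. The fit was tested on simulated data with independent normal noise, in which only a small share of the 68842 clusters was given a change. There, on day 3, 18% of 1.5-fold, 68% of 2-fold and 98% of 4-fold changes were recovered. The 6 false calls are to be read against the few calls made there and not against all clusters. The measured data held many more calls, so these rates need not hold for them. Promoters came from a RefSeq table (GRCr8), matched by symbol. Python 3.11.15 with pandas 2.3.3 and numpy 2.4.6 was used for the summaries. Alternatives were other pseudocounts (0 and 16), filters on dim clusters, array-median centring, quantile normalization, array weights, a trended robust prior, the 8 arrays of day 3 alone, the replicate number as a block, the 1.8-fold minimum of the study's methods, and each array of day 3 left out.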

Additional observations from a re-analysis of the deposited data

Results flagged for a closer look

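Among 376 groups of 4 livers tested for a lone value, 16 were flagged, and chance flags about 1 in 20 such groups. Of the rotenone livers, replicate 4 stood apart for Bmal1 (7.97, others 9.97 to 10.38), Dbp (9.56, others 5.53 to 5.80), Cry1 (6.27, others 7.40 to 7.54), Crat (8.62, others 9.33 to 9.44) and Igfals (13.65, others 12.94 to 12.99). Replicate 3 did so for Hamp (13.84, others 16.80 to 17.06) and Slc22a7 (11.07, others 10.61 to 10.67), replicate 2 for Rrm2l1 (6.19, others 5.49 to 5.58), Abca1 (12.06, others 12.30 to 12.32) and Pes1 (8.82, others 8.63 to 8.64), and replicate 1 for Cenpm (8.03, others 7.61 to 7.67). Of the control livers, replicate 4 stood apart for Acly (14.67, others 15.55 to 15.71) and Pck1 (16.37, others 17.74 to 17.96), replicate 3 for Atp5d (6.57, others 6.18 to 6.24), replicate 2 for Amd1 (6.96, others 7.57 to 7.59) and replicate 1 for Bmal1 (10.48, others 10.23 to 10.27). Rotenone replicate 4 also had the most genes more than 1 log2 unit below the median of the other 3 livers of its group, 106 of 14917, against 15 to 66 in the other 7 livers.

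The effect of rotenone differed between day 3 and day 1 by the test of the difference for 15 named genes. The differences are the fitted ones, and for Mki67, Lum and Rrm2 the day 3 rotenone livers lay at or below the level of the negative controls: with values raised to that level, a setting chosen after seeing the data, the difference was -0.92 for Lum and 3.87 for Rrm2. The effect was lower on day 3 for Mki67 (-2.79, adjusted p 0.014), Ccnd1 (-2.68, adjusted p 3.9e-05), Alox15 (-2.28, adjusted p 0.021), Pkp2 (-2.16, adjusted p 0.0025), Lum (-1.997, adjusted p 0.0059), Eci1 (-1.92, adjusted p 0.013), Pc (-1.27, adjusted p 0.0066) and Loxl2 (-1.11, adjusted p 0.031). It was higher on day 3 for Iyd (2.13, adjusted p 0.0029), Hyal1 (2.02, adjusted p 0.037), Tcea3 (1.97, adjusted p 0.0039), Thnsl2 (1.87, adjusted p 0.0029), Tstd1 (1.87, adjusted p 0.018), Car5a (1.71, adjusted p 0.017) and Idh2 (1.33, adjusted p 0.0044). Between day 14 and day 3 it differed for Rrm2 (3.97, adjusted p 0.035), Acsm2 (3.26, adjusted p 0.035), Tm7sf2 (2.42, adjusted p 0.0056), Psat1 (2.16, adjusted p 0.010), Dsg2 (1.07, adjusted p 0.035), Apoa1 (-1.79, adjusted p 0.010) and Apoa4 (-2.81, adjusted p 0.0048). Some of these calls were lost when 1 array of day 3 was left out. Against day 1 these were Loxl2 (for 7 of the arrays left out in turn), Hyal1 (5), Alox15 (3), Tstd1 (1) and Car5a (1). Between day 14 and day 3 they were Rrm2 (6), Acsm2 (6) and Dsg2 (5). The other genes named here kept the call. After array-median centring Hyal1 (adjusted p 0.0504) and Dsg2 (adjusted p 0.10) missed the threshold in the test of the difference.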

How the results depend on the processing

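The day 3 comparison called 2248 clusters. It called 1276 with only the 8 arrays of day 3, 799 with the added 1.8-fold minimum and 869 when groups that do not overlap and 1.8-fold were asked for in place of a p. Leaving out 1 array gave 1383 (control replicate 2) to 2101 (rotenone replicate 4), and 1494 without control replicate 1. The remaining settings gave 1761 to 3244. The replicate numbers showed no clear pairing of the livers: deviations of equal-numbered rotenone and control livers correlated at 0.17, -0.08, -0.03 and 0.03. Those of unequal-numbered livers correlated at -0.09 to 0.17. So few pairs cannot settle whether the numbers mark a pairing. With the replicate block the count was 2043 over 24 arrays and 503 over the 8 arrays of day 3. The 71 clusters that differed between day 3 and day 1 became 153 and 152 when dim clusters were left out, by the negative controls or by the median mean, 46 with the replicate block, and 30 (without rotenone replicate 3) to 64 with 1 array left out. After array-median centring they became 50, and most of the loss was among the higher ones, which went from 40 to 18. The 8 that differed between day 14 and day 3 became 31 with array weights, 66 and 44 without dim clusters, and 4 to 21 with 1 array left out (21 without rotenone replicate 4; 4 without control replicate 1 or rotenone replicate 2 or 3). The share of higher calls was 52.2%, 44.9% after array-median centring and 49.6% after quantile normalization. Of 1504 values of named genes with 1 array left out 1275 stayed on the same side of the threshold and 229 lost the threshold, in 47 genes. Of 2068 under other settings 1903 stayed on the same side, 158 lost it in 80 genes and 7 gained it. No call was reversed, but a gene short of the threshold could change sign. Dbp did so, with a change of 0.65 over all arrays and -0.32 without rotenone replicate 4. In the fit with the block over 8 arrays, 46 of 72 list counts above 0 fell by more than 1.5 times, 23 of them to 0, among these the rises of complex I (Ndufs7, adjusted p 0.078), complexes II to V and iron genes and the falls of folding in the endoplasmic reticulum. Of the others, 27 mitosis genes and 10 of fatty acid synthesis passed. Only bounds could be given for 90 genes called lower, which lay at the level of the negative controls in all rotenone livers but not in all control livers.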

Other observations

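Genes outside the lists, picked after their values were seen, held further changes. Of genes of fructose use, the fructose transporter Slc2a5 read 5.67, 6.16, 6.01 and 6.36 in rotenone livers, against 8.60, 9.26, 9.28 and 7.78 in control livers (-2.68 ± 0.27, adjusted p 3.5e-06), and Tkfc, which phosphorylates glyceraldehyde, was 3.15-fold lower. Khk, the first kinase of fructose, changed by -0.67 ± 0.16, a call that was lost with 1 array left out (highest adjusted p 0.064). Further genes of mitosis that were not in the list fell in the same way, Hmmr at least 2.81-fold, Mastl at least 2.34-fold and the condensin subunit Ncapg at least 2.03-fold, all with the rotenone livers at or below the level of the negative controls. The macrophage-attracting chemokine Ccl2 was 4.02-fold lower (adjusted p 0.0076) and Inhba, which encodes the activin A subunit, 4.01-fold lower, at 7.07, 7.13, 7.81 and 6.33 in rotenone and 8.54, 9.57, 8.63 and 9.63 in control livers.

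Among the rises outside the lists, the amino acid enzymes Hykk, of hydroxylysine breakdown, and Amdhd1, of histidine breakdown, were 4.14-fold and 3.70-fold higher. The lysosomal phospholipase Pla2g15 read 10.21, 9.46, 9.16 and 8.97 in rotenone and 7.44, 7.58, 7.66 and 7.66 in control livers (1.87 ± 0.20, adjusted p 8.3e-06), and the secreted phospholipase Pla2g12a 10.86, 11.17, 9.97 and 9.98 in rotenone and 6.80, 5.98, 7.17 and 6.45 in control livers (3.90 ± 0.38, 14.9-fold higher). The metallothioneins Mt1 and Mt2A spread widely among control livers and did not pass: Mt1 read 19.59, 19.57, 18.47 and 18.37 in rotenone livers, against 16.13, 10.91, 18.49 and 13.97 in control livers (4.13 ± 1.48, adjusted p 0.16).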
